A study of Mus musculus with 4 samples.

Results

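The cells described here carried both biliary keratin transcripts, Krt7 and Krt19, in 2 mouse liver tumours labelled KLF2. Whether they were transformed cells or bile duct cells of the host liver was not tested. The cells were selected on their own counts. A cell was included when Krt7 and Krt19 together made up at least 10 per 10000 of its unique molecular identifiers (UMIs, one per captured RNA molecule), with both genes detected and with 0 UMIs of Ptprc, Cdh5 and C1qa, which mark leukocytes, endothelium and macrophages. A cell also had to show 300 genes or more, with no more than 25% of its UMIs from mitochondrial genes. This rule found 1230 Krt7/Krt19 cells among 17312 kept cells of the 2 libraries labelled KLF2, 350 in KLF2 replicate 1 and 880 in KLF2 replicate 2, out of 25715 kept cells of the 3 libraries with a matrix analysed here.

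Every mouse was a C57BL/6 male that received plasmids for c-MYC and AKT together with the SB100X transposase by hydrodynamic injection into the tail vein, which drives DNA into liver cells. The KLF2 group received pT3-EF1α-KLF2 in addition, and the vector group received the empty pT3 plasmid. Each library came from the tumour tissue of 1 mouse, taken 10 weeks after injection at a labelled age of 18 weeks. All inserted genes were driven by the EF1α promoter, which is not restricted to one cell type, and the host liver kept its own cells. Vector replicate 1 was not analysed here, so the vector group is 1 library. In a check of the targeted gene, Klf2 stood at 338 and 406 CPM (summed UMIs of the gene per 1000000 UMIs of the cells named) over all kept cells of the 2 libraries labelled KLF2 and at 389 in vector replicate 2, so its counts did not separate the groups. Whether transcripts of the inserted KLF2 were counted under Klf2 is not given in the sources used here. Akt1, in contrast, was at 1157 and 661 CPM in the libraries labelled KLF2 and at 90.2 in vector replicate 2.

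Keratins are the intermediate filament proteins of epithelial cells and work as pairs of a type I and a type II chain. Krt8 and Krt18 form the basic pair of simple epithelia and are also made by hepatocytes. Krt7 and Krt19 are added in bile duct cells (cholangiocytes) and in several gland and duct epithelia, and their appearance in liver tumour cells is commonly used as a sign of biliary or progenitor features. Bile duct cells are joined by claudins, E-cadherin and desmosomes, and carry Epcam and Sox9.

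The Krt7/Krt19 cells made up 5.64% of the kept cells in KLF2 replicate 1 (95% Wilson interval 5.09 to 6.24) and 7.93% in KLF2 replicate 2 (7.44 to 8.44). In vector replicate 2 the same rule found 1 of 8403 cells (0.0119%, 0.0021 to 0.0674). The vector cells were shallower, with a median of 2373 UMIs per barcode against 8784 and 5724.5, and a cell with few UMIs is less likely to show both genes. With every cell thinned to 1000 UMIs before the rule was applied, the shares were 3.32%, 4.43% and 0.0123%, so the libraries kept their order. The vector library differed in other ways too. Over all kept cells Myc was at 623 and 432 CPM in the libraries labelled KLF2 and at 27.3 in vector replicate 2. The other Ptprc-negative, Cdh5-negative cells had a median of 0.219% and 0.339% mitochondrial UMIs, against 13.6% in vector replicate 2. The part of KLF2 and of these differences in the shares cannot be told apart here. With 1 vector library no test between the groups was made.

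Keratin UMIs were also counted in Ptprc-positive cells of both KLF2 libraries. The part of free RNA and of doublets in this was not tested. In Ptprc-positive cells below the keratin threshold, a population that should lack keratins, Krt7 reached 72.8 and 104 CPM and Krt19 reached 18.5 and 49.5. In the other Ptprc-negative, Cdh5-negative cells Krt7 stood at 135 and 251 and Krt19 at 52.6 and 115 CPM, less than 3 times the level in the Ptprc-positive cells. The Krt7/Krt19 cells, chosen for this, had 1477 and 1232 CPM of Krt7 and 876 and 732 of Krt19. Cells of other lineages also reached the keratin condition. It was met by 1.82% of the Ptprc-positive cells in KLF2 replicate 1 and by 4.54% in KLF2 replicate 2, by 6.31% and 9.17% of the Cdh5-positive cells, and by 8.01% and 13.4% of the cells negative for Ptprc, Cdh5 and C1qa. Among Ptprc- and Cdh5-negative cells with C1qa UMIs, 9.06% and 13.6% met it, shares no lower than in the negative cells, and they held more UMIs (medians 17411 and 9957, against 7675.5 and 4411). Whether those were epithelial cells with free macrophage RNA was not tested.

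The Krt7 and Krt19 level had a median of 20.03 per 10000 UMIs in KLF2 replicate 1, from 10.0 to 157, and of 17.0 in KLF2 replicate 2, from 10.0 to 235. Just outside the threshold, at 8 to 10 per 10000 with both genes detected, were 48 and 138 cells, with Krt8 at 656 and 1176 CPM and Elf3 at 405 and 639. Just inside, at 10 to 12, were 56 and 140 cells, with Krt8 at 888 and 1107 and Elf3 at 470 and 658 CPM. Other genes differed more across the threshold. Prss56, a protease gene, was at 138 and 170 CPM just outside and at 30.7 and 24.9 just inside. In KLF2 replicate 1 Epcam was at 250.1 outside and 459 inside and Cldn3 at 57.1 and 135, while in KLF2 replicate 2 Epcam was at 349 and 356 and Cldn3 at 134 and 171. The rule is a range of a measured level, and these values were not tested.

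The label of biliary cells was only partly borne out by the markers. Of the 13 cholangiocyte markers, 7 of the 10 that were tested were higher in the Krt7/Krt19 cells than in the other cells, but Krt8, Krt18 and Cldn4 among them were used to name the population and are a description only. Epcam, an adhesion molecule of biliary and other simple epithelia, was at 406 and 433 CPM against 74.3 and 138 in the other cells. Sox9, the transcription factor of bile duct precursors, was at 63.5 and 64.8 against 34.2 and 33.1. The secretin receptor Sctr had 0 and 1 UMIs in all 350 and 880 cells, and the chloride channel Cftr had 11 and 5. These cells are therefore called Krt7/Krt19 cells here.

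**Figure D1:**
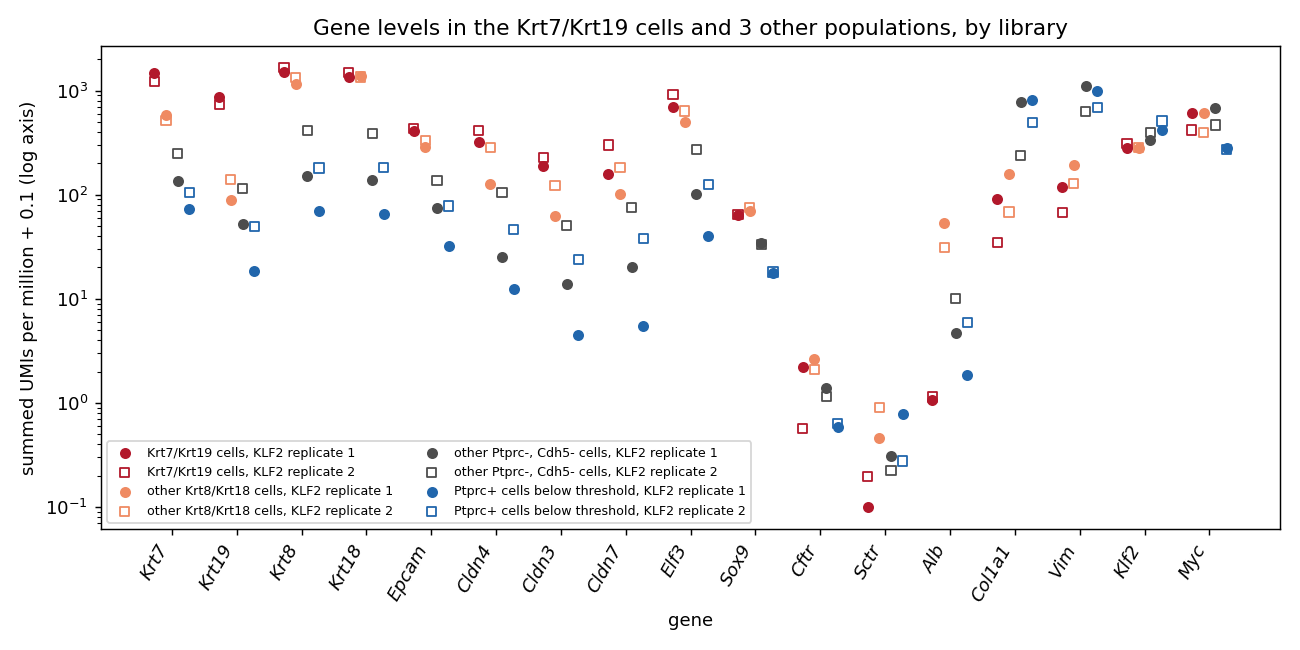
Level of each gene (summed CPM UMIs of the population plus 0.1, log axis) in 4 populations of the 2 libraries labelled KLF2. Filled circles are KLF2 replicate 1 and open squares KLF2 replicate 2. Cldn4 is at 324 and 414 in the Krt7/Krt19 cells and Vim at 117 and 67.5, while Sctr is at or near 0 in all of them.

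To find which other genes went with the 2 keratins, UMIs were summed over the Krt7/Krt19 cells and over all other Ptprc-negative, Cdh5-negative cells of the same library (4971 and 8110 cells), and the sums were compared with the library as a block. Genes that vary with Krt7 and Krt19 from cell to cell must differ in such a comparison, so the values describe the profile of the selected cells. Of 18192 genes tested, 2396 (13.2%) were higher and 2658 (14.6%) lower in the Krt7/Krt19 cells (edgeR quasi-likelihood test, Benjamini-Hochberg adjusted p under 0.05), and the median log2 fold change over all tested genes was -0.0046. With 4 sums and the block the fit has 1 residual degree of freedom. Of the 5054 genes called, 5048 had the same sign in both libraries. Without the block 132 were higher and 225 lower, and all of these 357 were among the genes called with it. With every cell thinned to 1000 UMIs 877 were higher and 836 lower of 12307 tested. Without the block the lists also held fewer calls: none of the 15 keratins, 1 of the 16 transcription factors, 6 of the 15 mesenchymal transition genes, 2 of the 16 Wnt genes, 3 of the 20 hypoxia genes, 1 of the 10 genes of other tumour cells, and none of the bile duct surface, immediate early or hepatocyte genes passed. The 2 populations had similar depth in KLF2 replicate 1 (median 9229.5 and 8621 UMIs) and differed more in KLF2 replicate 2 (7088.5 and 5307).

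**Figure D2:**
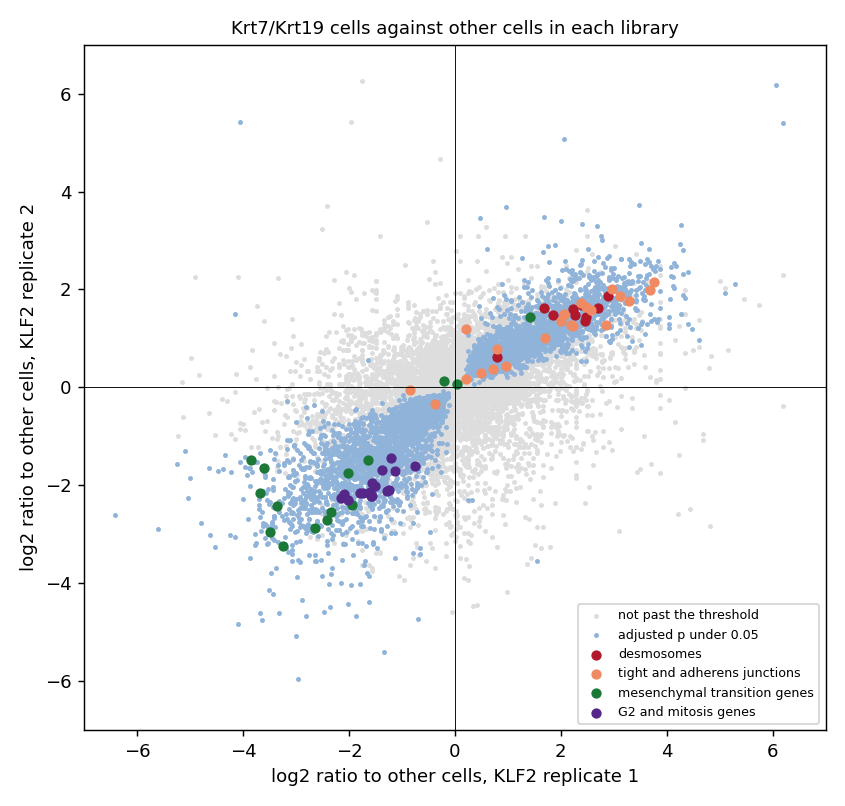
Log2 ratio of each tested gene between Krt7/Krt19 cells and other cells in KLF2 replicate 1 (horizontal) and KLF2 replicate 2 (vertical). Junction genes lie mainly at the upper right and mesenchymal and mitosis genes at the lower left, and 5048 of the 5054 called genes have the same sign in both libraries.

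Keratin and junction genes were higher in the Krt7/Krt19 cells. Krt8 was at 1506 and 1655 CPM in the Krt7/Krt19 cells and at 150 and 416 in the other cells, and Krt18 at 1359 and 1483 against 137 and 386. In both libraries the selected cells stood far above the Ptprc-positive cells, where Krt8 was at 69.1 and 180. The gene lists used here and below were all chosen with earlier results of these data known, so their counts are a description. Of 15 listed keratins tested, 9 were higher and none lower, with a median log2 fold change of 1.10. These counts include Krt8 and Krt18, which were among the naming markers and are a description only. Krt4, a keratin of internal stratified epithelia, was at 22.3 and 5.38 CPM against 1.72 and 1.65 (log2 fold change 2.70 ± 0.46 SE, edgeR adjusted p = 0.0043). The basal keratins Krt5 and Krt14 did not pass. Krt5 was at 31 and 0.755 CPM in the Krt7/Krt19 cells, so the 2 libraries differed widely in it.

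All 10 desmosome genes tested were higher in the Krt7/Krt19 cells, with a median log2 fold change of 1.85. Desmosomes anchor keratin filaments at the cell border. Evpl, the envoplakin that links them to keratin, was at 72.4 and 67.3 CPM against 9.75 and 18.5 (2.32 ± 0.22, edgeR adjusted p = 0.00039). The desmosomal cadherin Dsg2 was at 143 and 151 against 21.8 and 49.2 (2.12 ± 0.23, adjusted p = 0.00059). Of the tight and adherens junction genes, 17 of 23 tested were higher and 1 lower, with a median of 1.69. Claudins, which seal tight junctions, led this group. Cldn4 was among the naming markers but was not left out of the fit, so the junction counts and median may include it. It is given here as a description only, at 324 and 414 CPM against 25.2 and 105. Cldn3 was at 188 and 227 CPM against 13.9 and 50.9, a 7.47-fold difference (2.90 ± 0.33, adjusted p = 0.00072). Cldn7 was at 160 and 300 against 20.3 and 74.8 (2.44 ± 0.21, adjusted p = 0.00023). Without the block, 4 of the 10 desmosome genes and none of the 23 junction genes passed.

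Because these keratin and claudin genes were higher together, the sequences before the RefSeq start of 4 of them are shown. Krt7 (chromosome 15, gene at 101411043 to 101430313) and Krt8 (chromosome 15, 101996698 to 102004482) lie in the same type II keratin cluster, and Cldn4 (134945119 to 134946934) and Cldn3 (134986214 to 134987472) are neighbours on chromosome 5. The gene positions are from GENCODE, whose outermost starts differ from the RefSeq ones for the keratins: the Krt7 window lies inside the GENCODE gene and the Krt8 window overlaps its first bases. Each line gives the 250 bases before the RefSeq transcription start (GRCm38.p6), 5′ to 3′ on the gene's strand. Capitals mark matches, on either strand, to 3 words: CCNCNCCC, the CACCC-type box that Krüppel-like factors recognise, TGANTCA, the AP-1 site, and AACCNGGTT, the grainyhead-like site.
Krt7: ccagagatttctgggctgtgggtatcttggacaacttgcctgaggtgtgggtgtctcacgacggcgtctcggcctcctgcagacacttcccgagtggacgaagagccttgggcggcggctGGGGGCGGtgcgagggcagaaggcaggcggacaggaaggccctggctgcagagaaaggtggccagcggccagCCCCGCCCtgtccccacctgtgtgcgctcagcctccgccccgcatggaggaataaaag
Krt8: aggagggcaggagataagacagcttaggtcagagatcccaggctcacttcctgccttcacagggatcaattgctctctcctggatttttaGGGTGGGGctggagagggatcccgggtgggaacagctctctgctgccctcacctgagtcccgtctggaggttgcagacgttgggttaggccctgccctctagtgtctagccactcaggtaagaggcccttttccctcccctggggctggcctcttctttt
Cldn4: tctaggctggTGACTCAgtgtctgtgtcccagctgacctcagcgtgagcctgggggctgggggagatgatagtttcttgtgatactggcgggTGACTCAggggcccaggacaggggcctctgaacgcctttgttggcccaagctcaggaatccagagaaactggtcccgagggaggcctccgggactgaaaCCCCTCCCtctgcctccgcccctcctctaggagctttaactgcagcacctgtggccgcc
Cldn3: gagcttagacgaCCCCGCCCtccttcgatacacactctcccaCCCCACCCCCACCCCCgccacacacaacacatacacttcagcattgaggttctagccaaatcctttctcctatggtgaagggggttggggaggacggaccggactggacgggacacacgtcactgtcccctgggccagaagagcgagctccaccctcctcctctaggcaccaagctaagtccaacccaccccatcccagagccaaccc
The Krt7 window (chr15:101412153-101412402, + strand) held 2 matches to the CACCC-type word, the Krt8 window (chr15:102004343-102004592, - strand) 1, the Cldn4 window (chr5:134946935-134947184, - strand) 1 and the Cldn3 window (chr5:134985964-134986213, + strand) 5, some of which overlap. The Cldn4 window also held 2 AP-1 words, and none of the 4 held the grainyhead-like word. Of all 32851 upstream windows of this length, 45.9% held the CACCC-type word, 6.75% the AP-1 word and 0.24% the grainyhead-like word. A match describes the letters only.

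Transcription factors of simple and barrier epithelia were higher as well. Of 16 biliary and epithelial factors tested, 10 were higher and none lower, with a median log2 fold change of 0.83. The difference was smaller against other cells with Krt8 and Krt18, described further on. There 3 of 14 tested were higher and 1 lower (median 0.18), and DESeq2 called 1 higher and 0 lower. The listed factors summed to 1956 and 2232 CPM in the Krt7/Krt19 cells and to 1615 and 1753 in those cells. Elf3, an epithelium-restricted ETS factor, was at 697 and 921 CPM against 103 and 271 in the other cells and 39.8 and 126 in the Ptprc-positive cells (2.23 ± 0.20, edgeR adjusted p = 0.00033). Ehf, another ETS factor, was at 97.8 and 96.5 against 25.9 and 39.2. In both libraries Elf3 and Ehf stood above the other cells. Sox9 was 1.86-fold higher (0.90 ± 0.10, adjusted p = 0.00072).

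Among the surface, secreted and cilium genes of bile ducts, 8 of 21 tested were higher and 3 lower (median 1.10). Against other cells with Krt8 and Krt18, described further on, 3 of 18 were higher and 2 lower (median -0.07). These genes summed to 1933 and 1668 CPM in the Krt7/Krt19 cells and to 1111 and 1836 in those cells. In the Ptprc-positive cells they summed to 1906 and 1927, so their sum did not set the Krt7/Krt19 cells apart from leukocytes. Of 17 ion and water transport genes, 5 were higher and 1 lower. The water channel Aqp1, which bile ducts normally carry, was the lower one, at 7.89 and 14.7 CPM against 53.7 and 66 (-2.43 ± 0.16, edgeR adjusted p = 0.00011). Of 10 tested mucin and gut epithelium genes 3 were higher, among them Vil1, the villin of microvilli, at 20.2 and 39.1 against 2.21 and 8.19. Gpa33, a junctional glycoprotein of intestinal epithelium, was at 81.2 and 150 against 5.54 and 27.9 (3.06 ± 0.30, adjusted p = 0.00042).

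The 12 highest genes included 2 small proline-rich proteins and a skin gasdermin, which are described singly, since no list of such genes was tested. Sprr2a3, a small proline-rich protein of the cornified envelope, was at 105 and 50 CPM in the Krt7/Krt19 cells against 8.3 and 7.1 (3.21 ± 0.20, edgeR adjusted p = 7.9e-05). It belongs to a family of near-identical genes, so its reads may be split with them. Sprr1a was at 131 and 165 against 24.8 and 16.3 (2.85 ± 0.21, adjusted p = 0.00015). Both were carried by few cells: with cells thinned to 2000 UMIs, Sprr1a was detected in 9.06% and 6.96% of the Krt7/Krt19 cells, in 1.38% and 2.12% of the other cells and in 0.893% and 1.78% of the Ptprc-positive cells. Unthinned, Sprr1a was detected in 18.3% and 14% of the Krt7/Krt19 cells. Gsdma, a pore-forming gasdermin of skin, was at 57.9 and 44 CPM against 4.91 and 9.94 (2.78 ± 0.30, adjusted p = 0.00058). Tmprss11d, an airway-type membrane protease, was at 57.5 and 80.2 against 5.91 and 13 (2.90 ± 0.17, adjusted p = 7.1e-05). Also among the 12 highest were Bglap3, Lrrc26, Gpr182 and Ceacam10, with log2 fold changes from 2.77 to 3.14.

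**Figure D3:**
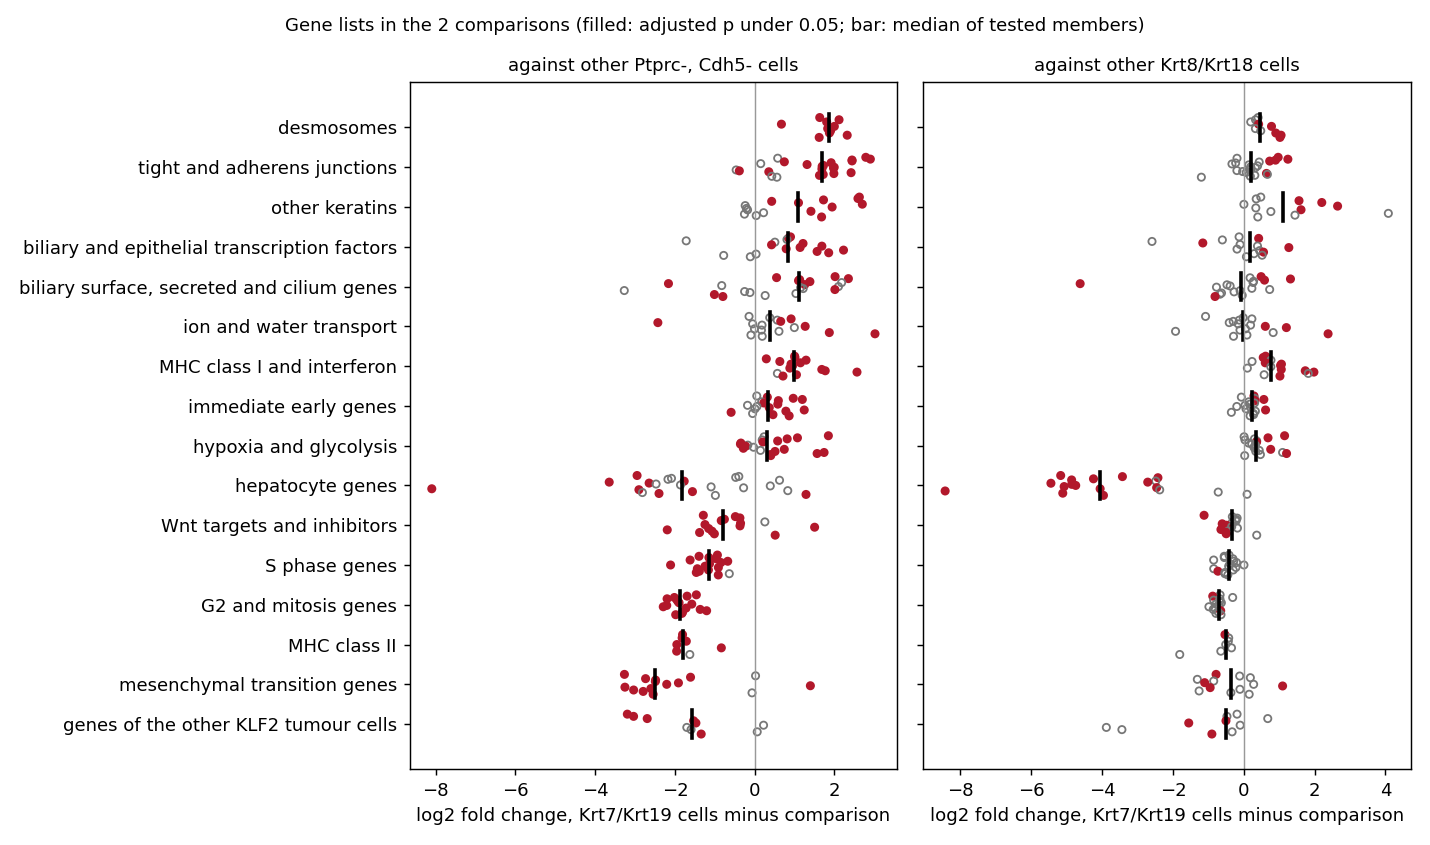
Log2 fold change of each tested gene of 16 lists in the Krt7/Krt19 cells against all other cells (left) and against other Krt8/Krt18 cells (right). Filled points passed an adjusted p under 0.05 and bars are list medians. Desmosome genes are all filled on the left, with a median of 1.85, and 5 of 10 are filled on the right, where the median is 0.45.

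Genes of cell division were lower in the Krt7/Krt19 cells. All 16 G2 and mitosis genes tested were lower (median log2 fold change -1.86), and so were 16 of 17 S phase genes (median -1.15). Cdk1, the kinase that starts mitosis, was at 18.7 and 10.6 CPM against 64.6 and 47.3 (-2.01 ± 0.13, edgeR adjusted p = 0.00011). Ccnb1, its cyclin, was at 9.62 and 4.43 against 39.2 and 21.9 (-2.20 ± 0.16, adjusted p = 0.00013). The Cdk inhibitor Cdkn1a was higher, at 1470 and 1282 against 834 and 913 (0.62 ± 0.08, adjusted p = 0.0014). Without the block 2 of the 16 mitosis genes and 1 of the 17 S phase genes passed, and with thinned cells 10 of 16 and 5 of 16.

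Mesenchymal genes were lower still. Of 15 mesenchymal transition genes 12 were lower and 1 higher, with a median log2 fold change of -2.49. Vim, the intermediate filament protein of mesenchymal cells, was at 117 and 67.5 CPM in the Krt7/Krt19 cells against 1107 and 634 in the other cells, 9.62-fold lower (-3.27 ± 0.07, edgeR adjusted p = 4.4e-06). The collagen gene Col1a2, a marker of fibroblasts outside that list, was at 35.8 and 14.4 against 420 and 133 (-3.41 ± 0.12, adjusted p = 1.6e-05). The one gene that was higher, S100a6, encodes a calcium-binding protein that simple epithelia also make, and stood at 9788 and 14926 against 3639 and 5531 (1.40 ± 0.04, adjusted p = 6.2e-06). The 8 markers of fibroblasts and mural cells summed to 210 and 125 CPM in the Krt7/Krt19 cells and to 1585 and 525 in the other cells, and none was at 0. The other cells include any stromal cells of the tumours, and their part in this difference was not tested. In the cells with Krt8 and Krt18, described further on, Vim was at 194 and 129.

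Genes of other cell states of these tumours were also lower, 6 of the 10 listed. Serpinf1, an anti-angiogenic serpin, was at 15.2 and 5.19 CPM against 166 and 28.3 (-3.04 ± 0.22, edgeR adjusted p = 0.00013). The carbonic anhydrase Car3 was at 79.5 and 28.2 against 303 and 301 (-2.70 ± 0.30, adjusted p = 0.00066). Il31ra, an interleukin receptor gene found throughout these tumours, was not separated: it was at 561 and 571 against 420 and 536 (0.22 ± 0.09, adjusted p = 0.10). Mt4, a metallothionein, was among the deepest falls, at 6.54 and 6.32 against 90.6 and 59.3 (-3.50 ± 0.16, adjusted p = 4.2e-05). Like the other gene lists used here, that list was drawn up with earlier results of these libraries in view. The direction of a list is therefore not independent evidence.

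Signalling genes moved in both directions. Of 16 Wnt targets and inhibitors, 13 were lower and 2 higher (median -0.80). Lgr5, the receptor of Wnt-dependent stem cells, was at 20 and 23.1 CPM against 56.5 and 48.1 (-1.29 ± 0.14, edgeR adjusted p = 0.00059), and the secreted inhibitor Wif1 at 239 and 254 against 776 and 510 (-1.38 ± 0.15, adjusted p = 0.0006). The higher ones were Ascl2, under 5 CPM, and Sox2 at 110 and 125 against 85.5 and 76.2. Areg, the EGF receptor ligand amphiregulin, was at 71.4 and 113 against 7.98 and 24 (2.63 ± 0.20, adjusted p = 0.00017), and the receptor gene Erbb3 at 24.4 and 32.2 against 4.83 and 10.5. Of 17 Notch pathway genes, a pathway that directs bile duct fate, 2 were higher and 6 lower (median -0.02). Over all tested genes 13.2% were higher and 14.6% lower. Notch3 was one of the higher Notch genes, at 28.7 and 16.3 against 5.84 and 5.67 (1.87 ± 0.22, edgeR adjusted p = 0.00082), while its target Hey1 was at 2.89 and 2.08 against 20.2 and 9.74. Of 23 YAP/TEAD targets 5 were higher and 7 lower, with a median of -0.16.

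The interferon and antigen presentation genes split by class. Of 16 MHC class I and interferon genes 15 were higher (median 0.98), and of 7 MHC class II genes 6 were lower (median -1.81). Ifit1, an interferon-induced RNA sensor, was at 13.9 and 131 CPM against 2.24 and 21.9 (2.57 ± 0.12, edgeR adjusted p = 4.2e-05). Isg15, an interferon-induced ubiquitin-like protein, was at 44.1 and 214 against 13.2 and 59.3 (1.77 ± 0.10, adjusted p = 6.9e-05). In the level of Ifit1 and Isg15 the 2 libraries thus differed more than the populations did. In KLF2 replicate 2 Isg15 was at 946 CPM in a group of 62 cells, described further on, and at 138 in the other Krt7/Krt19 cells. The 16 class I and interferon genes summed to 1048 and 2046 CPM in the Krt7/Krt19 cells and to 512 and 1172 in the other cells. In the Ptprc-positive cells they summed to 3612 and 3853. Cd74, the class II invariant chain, was at 27.3 and 81.4 against 89 and 290 in the other cells and 2745 and 3330 in the Ptprc-positive cells. The rule kept cells with C1qa UMIs out of the selected cells and left them in the comparison, and all 6 macrophage markers were lower in the selected cells, at 71.2 and 104 CPM in sum against 174 and 303, none of them at 0. With the comparison cells also without C1qa and Pecam1, 5 of the 7 class II genes were lower (median -1.29) and 15 of the 16 class I and interferon genes higher. With cells thinned to 1000 UMIs 5 of the 16 were higher (median 0.58). Without the block none of either list passed, at medians of -1.82 and 0.92.

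Of 18 immediate early genes 11 were higher and 1 lower (median 0.34), led by Klf4, a factor of barrier epithelia, at 475 and 584 CPM against 189 and 251 (1.24 ± 0.07, edgeR adjusted p = 7.5e-05). Of 20 hypoxia and glycolysis genes 11 were higher and 4 lower (median 0.31), with none lower at a keratin threshold of 20 or without the C1qa condition, led by Adm, which encodes adrenomedullin, at 103 and 76.9 against 23 and 25.2 (1.85 ± 0.14, adjusted p = 0.00017). Of 22 hepatocyte genes 8 were lower and 1 higher (median -1.81, or -1.78 with the gene without UMIs set at the limit that a count of 0 allows). The levels were low throughout: Alb, the albumin gene, was at 0.962 and 1.04 CPM in the Krt7/Krt19 cells and at 4.57 and 9.98 in the other cells. Ahsg, which encodes fetuin-A, was the higher one, at 49.7 and 78.7 against 22.5 and 28.2.

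The genes carried by the plasmids differed little. Klf2 was at 282 and 313 CPM in the Krt7/Krt19 cells, at 333 and 397 in the other cells and at 416 and 510 in the Ptprc-positive cells (-0.32 ± 0.08 against the other cells, edgeR adjusted p = 0.016, DESeq2 adjusted p = 0.059). Akt1 was at 1056 and 631 against 1258 and 715 (-0.25 ± 0.06, edgeR adjusted p = 0.02, DESeq2 adjusted p = 0.15), and Myc at 609 and 419 against 675 and 468 (-0.19 ± 0.07, adjusted p = 0.076). The calls on Klf2 and Akt1 were thus lost with DESeq2, and also without the block (edgeR adjusted p = 0.29 and 0.71) and at a keratin threshold of 20 (0.19 and 0.081). In vector replicate 2 the Ptprc- and Cdh5-negative cells had 428 CPM of Klf2, 94.4 of Akt1 and 27.8 of Myc.

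A closer comparison used other cells with simple epithelial keratins: Krt8 and Krt18 together at least 10 per 10000 UMIs, both detected, 0 UMIs of Ptprc, Cdh5 and C1qa, and not a Krt7/Krt19 cell. There were 249 and 994 of them. They held fewer UMIs, with medians of 8039 and 3789.5 against 9229.5 and 7088.5 in the Krt7/Krt19 cells. Of 13710 genes tested 461 (3.36%) were higher and 365 (2.66%) lower in the Krt7/Krt19 cells. Without the block none passed in either direction (edgeR, adjusted p under 0.05), while 1331 genes had an unadjusted p under 0.05, and DESeq2 with the block called 139 higher and 95 lower. The calls of this comparison thus rest on removing the difference between the 2 libraries.

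Against these cells the difference in junction genes was smaller. Of 10 desmosome genes 5 were higher (median log2 fold change 0.45), of 22 junction genes 5 (median 0.20) and of 12 keratins 4 (median 1.11). With DESeq2 these counts were 3, 1 and 1, and without the C1qa condition 2, 3 and 1. Krt8 and Krt18 were left out of the calls of this comparison, while Cldn4 was not. Cldn3 was at 188 and 227 CPM against 62.3 and 124 (1.25 ± 0.16, edgeR adjusted p = 0.0044), and Epcam at 406 and 433 against 287 and 333 (0.49 ± 0.09, adjusted p = 0.017). Sox9 was at 63.5 and 64.8 against 69.2 and 75.9 (-0.13 ± 0.11, adjusted p = 0.52). None of the 16 G2 and mitosis genes was higher and 2 were lower (median -0.71). With the keratin threshold at 20 per 10000, 13 of the 16 were lower (median -1.57), and without the C1qa condition 4 were (median -1.09). Lgr5 remained lower, at 20 and 23.1 against 47.6 and 50 (-1.12 ± 0.14, adjusted p = 0.0044).

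The 8 highest genes against the other Krt8/Krt18 cells included Sprr1a, Endou and Tgm3, each known from squamous epithelia, though no list of such genes was tested. Sprr1a was at 131 and 165 CPM against 3.96 and 22.8, 10.6-fold higher (3.41 ± 0.30, edgeR adjusted p = 0.00098). Endou, an RNA-cleaving endonuclease of squamous epithelia, was at 44.8 and 24 against 5.4 and 3.98 (2.82 ± 0.22, adjusted p = 0.00053). Tgm3, a transglutaminase that crosslinks the cornified envelope, was at 88.3 and 349 against 9.37 and 125 (2.04 ± 0.28, adjusted p = 0.0061). Krt6a, a stress keratin of stratified epithelia that shares sequence with Krt6b, was at 18.3 and 21.6 against 1.8 and 4.25 (2.65 ± 0.28, adjusted p = 0.0021). Gas1, a growth-arrest surface protein, was at 23.9 and 63.2 against 5.04 and 15.8 (2.11 ± 0.17, adjusted p = 0.00069), and Cbr2, a carbonyl reductase, at 104 and 239 against 28.1 and 60.8 (1.99 ± 0.11, adjusted p = 0.00014). Of 16 MHC class I and interferon genes 10 were higher, with a median of 0.77, against 5 with DESeq2, 3 without the C1qa condition and 2 of 13 with cells thinned to 1000 UMIs.

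Hepatocyte genes were lower in the Krt7/Krt19 cells in this comparison, 15 of 19 tested, with a median log2 fold change of -4.06. Alb was at 0.962 and 1.04 CPM in the Krt7/Krt19 cells against 53.3 and 30.8 (-5.17 ± 0.28, edgeR adjusted p = 0.00014), and Hpx, which encodes hemopexin, at 0.77 and 1.51 against 59.8 and 38. These transcripts came from few cells. When 5 and 32 comparison cells with at least 10 per 10000 UMIs of the hepatocyte markers were left out, an alternative chosen after seeing the data, 8 hepatocyte genes could still be tested, none was lower and 1 was higher. Alb then had a log2 fold change of -0.77 (adjusted p = 0.47). Mt4 kept its difference under that alternative, with -3.11 (adjusted p = 0.001) beside -3.09 with all cells.

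Within the Krt7/Krt19 cells, several genes followed the level of the 2 keratins. Cells at 10 to 20 per 10000 UMIs numbered 174 and 574, those at 20 to 50 numbered 157 and 285, and those at 50 or more 19 and 21. Across these 3 ranges Cldn4 was at 205, 425 and 739 CPM in KLF2 replicate 1 and at 353, 508 and 986 in KLF2 replicate 2. Sprr1a was at 27.7, 125 and 1388, and at 88.2, 205 and 2937. Both genes thus stood higher in each range than in the one below it, in both libraries. Krt8 did so in KLF2 replicate 1 (1072, 1902 and 2725) but not in KLF2 replicate 2 (1457, 2033 and 1472). Prss56 was at 150, 84 and 29.9 and at 118, 42.9 and 0, but at 30.7 and 24.9 in the lowest part of the first range (10 to 12 per 10000), so it showed no steady fall with the keratin level. The highest range rests on few cells and no test was made, since the ranges were cut on the selecting genes.

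**Figure D4:**
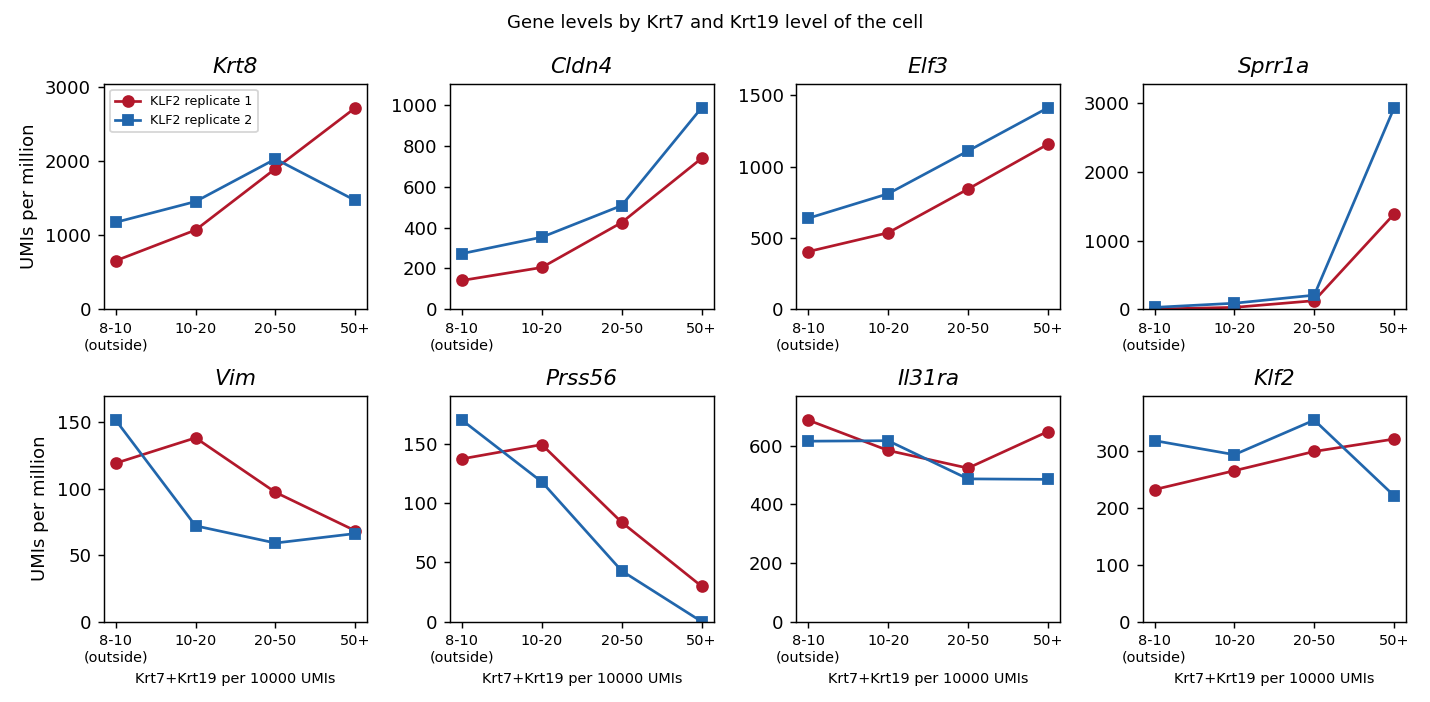
Level of 8 genes (CPM) in cells at 8 to 10 (outside the rule), 10 to 20, 20 to 50 and 50 or more Krt7 and Krt19 UMIs per 10000, in each library labelled KLF2. Sprr1a is highest in the last range in both libraries (1388 and 2937), while Prss56 is at 29.9 and 0 there.

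Clustering without the 5 rule genes placed many of the Krt7/Krt19 cells together. In KLF2 replicate 1, 190 of the 350 (54.3%) lay in 1 of 20 clusters, where they made up 41.9% of 453 cells. The leading genes of that cluster included Defa21 and Defa22, at 899.7 and 655 CPM, while the Krt7/Krt19 cells of that library held 5.58 and 4.04 CPM of them. In KLF2 replicate 2, 433 of the 880 (49.2%) lay in 1 of 19 clusters, led by Krt8, Pglyrp1 and S100g, where they made up 30.5% of 1420 cells. The other cells of those clusters fell outside the rule, through the keratin condition or through UMIs of Ptprc, Cdh5 or C1qa. Most of the remaining Krt7/Krt19 cells lay in clusters led by Camk1d and Gphn (64 cells in KLF2 replicate 1), by haemoglobin genes (145 in KLF2 replicate 2), or with a median of 9.71% and 7.6% mitochondrial UMIs (41 and 135 cells). The first 4 clusters by number of Krt7/Krt19 cells held 91.1% and 88.8% of them.

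Clustered on their own, the Krt7/Krt19 cells fell into 5 groups in KLF2 replicate 1 and 6 in KLF2 replicate 2, which are described without a test because the same cells made the clusters. A group of 73 cells in KLF2 replicate 1 held most of the small proline-rich transcripts, with Sprr2a3 at 468 CPM and Krt8 at 2467. In KLF2 replicate 2, 17 cells had Sprr2a3 at 2048 and the alpha-defensin genes Defa21 and Defa22 at 4500 and 3310 CPM. These 2 are near-identical members of one family. A group of 62 cells in KLF2 replicate 2 carried the type III interferon genes Ifnl2 and Ifnl3 at 162 and 117 CPM, with the chemokine Cxcl10 at 474 and Isg15 at 946, whereas no other group of either library passed 11 CPM of Ifnl2 or Ifnl3. Another group was found in KLF2 replicate 1 alone, where 56 cells had the trypsin inhibitor Spink1 at 210 and the fetal transcript H19 at 196 CPM. Krt7 ranged from 885 to 2820 CPM over the 11 groups, and Klf2 from 110 to 379.

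**Figure D5:**
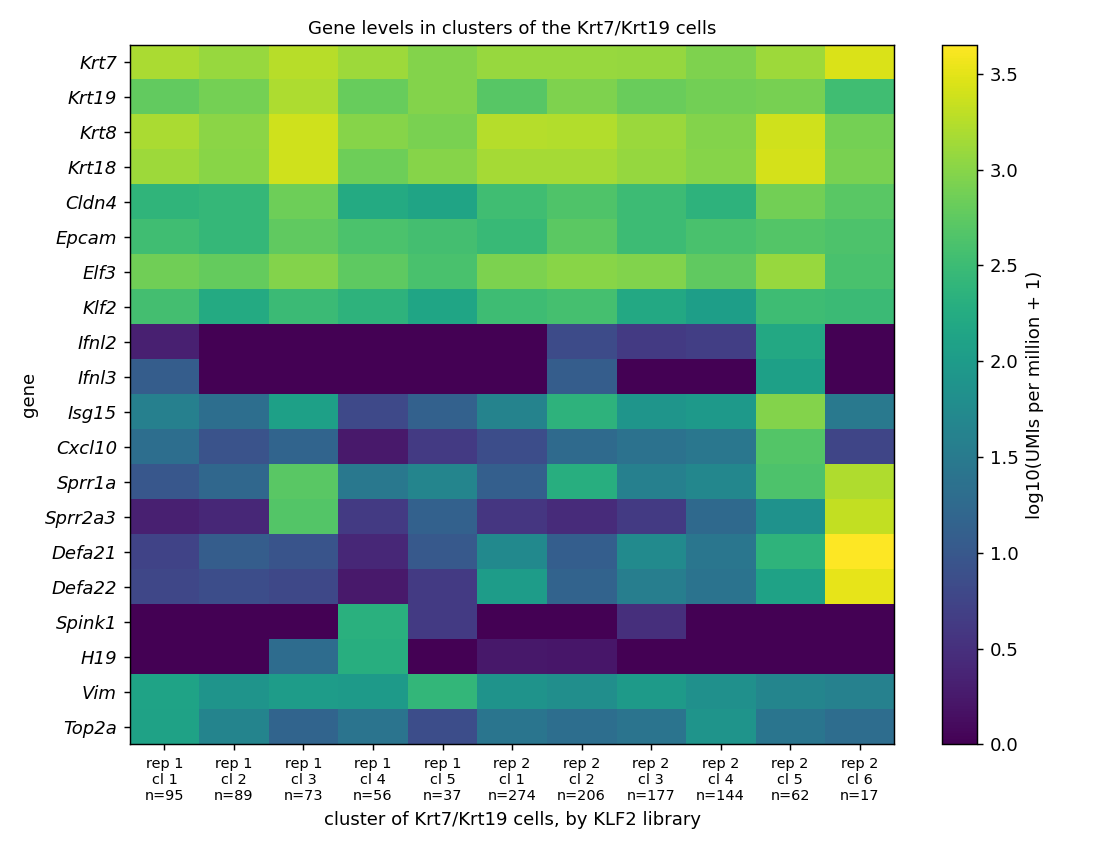
Levels (log10 of CPM plus 1, colour) of 20 genes in the clusters of Krt7/Krt19 cells of KLF2 replicate 1 (5 clusters) and KLF2 replicate 2 (6 clusters). Keratins are high in every column, while Ifnl2 and Ifnl3 are high in the 62 cells of cluster 5 of KLF2 replicate 2 and Spink1 in the 56 cells of cluster 4 of KLF2 replicate 1.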

How the data were processed

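Single-cell RNA was captured from digested tumours with the DNBelab C Series kit, per the labels' protocols. The deposited files hold UMI counts per gene and cell, per the file headers. PISA 1.0 and GRCm38 are named in the submitters' processing notes, and the aligner is not given in the sources used here. Cell names are serial labels, of which 550 were shared by the 2 libraries labelled KLF2, so they show nothing about shared barcodes. Vector replicate 1 was not analysed here.

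A cell was kept with 300 or more genes and no more than 25% of its UMIs from mitochondrial genes. UMIs were summed per library and population and compared with edgeR 4.0.16 (R 4.3.3, TMM scaling, quasi-likelihood test, filter on low counts, Benjamini-Hochberg adjustment over all tested genes), with the library as a block because both populations came from the same mouse. DESeq2 1.42.0 was an alternative. Folds are on edgeR's log2 scale, and levels are CPM, the summed UMIs per 1000000 UMIs of a population. Each ± value is the SE implied by the edgeR test, the size of the log2 fold change over the square root of the F statistic. It rests on moderation across genes and is not a spread between the 2 mice. No doublet caller was run, and removal of the 5% of cells with the most UMIs was tried instead. Clusters came from scanpy 1.11.5 with Leiden clustering, without the rule genes. Intervals are 95% Wilson intervals and cover counting error only. Cells were not treated as replicates, and n is 2 mice.

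The members and the 40 gene lists were chosen with earlier results of these data known. Named genes were the 12 highest and 12 lowest genes (8 and 8 in the second comparison) with an adjusted p under 0.05, at least 30 CPM and at least a 2-fold difference in each library, and up to 4 genes per list. The text describes a selection of these, and some genes are not reported here. Genes named from clusters were chosen after their values were seen. The fits were tested on simulated counts in which 200 genes were changed. In the first comparison 197 were recovered with 15 false calls, and in the second 200 with 9. The simulation did not select cells on keratin counts, so it cannot show how that selection affected the calls.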

Additional observations from a re-analysis of the deposited data

Results flagged for a closer look

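Cells that carried UMIs of another lineage's marker also met the Krt7 and Krt19 condition in both libraries labelled KLF2, above the level in vector replicate 2. Of the Ptprc-positive cells, 1.82% (13 of 715) met it in KLF2 replicate 1 and 4.54% (78 of 1718) in KLF2 replicate 2, against 0 of 3220 in vector replicate 2, which allows a share of up to 0.0932% (3 counts of the total; the 95% Wilson upper limit is 0.119%). Of the Cdh5-positive cells, 6.31% (13 of 206) and 9.17% (43 of 469) met it, against 1 of 1892 (0.0529%). Of the C1qa-positive cells without Ptprc and Cdh5, 9.06% (86 of 949) and 13.6% (330 of 2427) met it, against 0 of 468, which allows up to 0.641% by 3 counts and 0.814% by the Wilson limit. The Ptprc-positive and Cdh5-positive cells lie outside the comparisons, whereas the C1qa-positive cells belong to the other cells of the first one. The part of free RNA and of doublets in these shares was not tested.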

How the results depend on the processing

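Both populations of a library came from the same mouse, so the block pairs them by design. Without the replicate block 132 genes were higher and 225 lower against all other cells, and 0 and 0 against the other Krt8/Krt18 cells (edgeR), where 1331 had an unadjusted p under 0.05. Against all other cells, DESeq2 called 1690 lower, and thinning to 1000 UMIs left 877 higher and 836 lower. Against the other Krt8/Krt18 cells, DESeq2 called 139 higher and 95 lower, no filter on low counts gave 1186 and 703, thinning 96 and 89, removal of the 5% of cells with the most UMIs 785 and 664, and a keratin threshold of 20 gave 906 and 704. Among alternatives chosen after seeing the data, no condition on C1qa gave 229 and 136, at least 5 keratin UMIs 607 lower, and at least 2000 UMIs 304 and 220.

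The share of Krt7/Krt19 cells in KLF2 replicates 1 and 2 was 3.32% and 4.43% after thinning, 2.83% and 2.76% at a threshold of 20, and 8.10% and 11.3% at 5. It was 7.02% and 10.9% without the C1qa condition, 4.99% and 6.39% with at least 5 keratin UMIs, and in KLF2 replicate 2 8.63% with at least 2000 UMIs. With 1 replicate left out, the mean share ranged from 5.64% to 7.93%, and counts of genes could not be tested.

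Of the log2 fold changes against all other cells, some turned sign. Thinning gave 0.36 for Dkk1, 0.18 for Nt5e and -0.21 for Pmaip1, and a threshold of 5 gave 0.18 for Alb and 0.73 for Hpx. C1qc was at 0.031 against cells without C1qa and Pecam1, and Il33 at 1.04 without the C1qa condition. With 1 replicate left out, Hbb-bs ranged from -2.29 to 0.25 and Tm4sf4 from -2.30 to 0.33. Against the other Krt8/Krt18 cells, Hbb-bs ranged from -2.36 to 0.15, a threshold of 20 gave -1.25 for Ceacam10 and -0.021 for Gpr182, and leaving out cells with hepatocyte markers gave 0.31 for C3 and 0.26 for Hp. The cause was not tested in any of these.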
